A study of Mus musculus with 6 samples.

Results

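The complement genes C1qa, C1qb, C1qc, C3, C3ar1, C5ar1, Cfb, Cfp and Vsig4 were read in RNA of bone marrow-derived macrophages (BMDMs). A gene was represented by the probe set that the array annotation ties to its symbol alone, and 8 of the 9 genes had exactly 1 such probe set, out of 30184 genes represented in this way and 65956 probe sets tested. C3 had none in the annotation used and was not analysed here. The arrays compared were 3 labelled ATF3-CKO_rGAS6, of the genotype ATF3 fl/fl Lyz2-cre+, in which Cre should remove the transcription factor ATF3 from the myeloid lineage, and 3 labelled WT_rGAS6, from ATF3 fl/fl Lyz2-cre- littermates. All were biological replicates of the C57BL/6J strain, from adult mice, and all carried the floxed Atf3 gene, but Cre was carried by the ATF3-CKO genotype alone, so the Cre and the loss of ATF3 cannot be told apart. All cells were grown with 20 ng/ml macrophage colony-stimulating factor and treated with rGAS6, recombinant GAS6 protein, which activates MerTK, and no untreated group was compared here. Hypoxia/reoxygenation (HR), which stands in for ischemia and reperfusion in culture, was applied and the cells were harvested after 24 h. Cre at Lyz2 also acts in monocytes and neutrophils.

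The targeted gene went against the labels. Atf3 read 9.20, 9.26 and 9.25 on the arrays labelled ATF3-CKO and 8.56, 8.46 and 8.38 on the WT arrays, in units of log2 probe set intensity, a log2 difference of 0.77 (adjusted p = 0.00538 in limma). Which exon was floxed was not stated in the sources read, and a probe set outside it would check nothing, so every direction below rests on these labels. Lyz2, whose locus carries the Cre, averaged 19.42 ± 0.08 on the arrays labelled ATF3-CKO and 18.92 ± 0.21 on the WT arrays (SD, n = 3 each, adjusted p = 0.0817 in limma). The difference did not pass, but the arrays labelled ATF3-CKO lay wholly above the WT arrays. All 9 measured macrophage markers lay above the median level of all probe sets (4.32). Their mean level was 13.6 to 13.8 on the arrays labelled ATF3-CKO and 13.6 to 14.2 on the WT arrays. That mean took in changes of both signs, since 2 of the 9 rose (Mertk and Cd14) and 1 fell (Itgam) in limma. At an unadjusted p of 0.05, 3 were higher and 3 lower. Of 12 neutrophil markers 6 fell and none rose (9 lower and 1 higher at an unadjusted p of 0.05), with a mean level of 6.50 to 7.46 on the arrays labelled ATF3-CKO against 8.78 to 9.05 on the WT arrays. Among markers of other cells, 1 of 5 of monocytes fell (Ly6c2), 1 of 7 of lymphocytes rose (Cd4), and none of 7 of dendritic cells, 6 of fibroblasts or 4 of hepatocytes passed in limma, with 0, 2 and 0 at an unadjusted p of 0.05.

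Complement is a cascade of plasma proteins that tags particles and dying cells and calls phagocytes to them. C1q, built from the chains encoded by C1qa, C1qb and C1qc, opens the classical pathway and is made largely by macrophages rather than by the liver. Factor B and properdin, encoded by Cfb and Cfp, drive the alternative pathway, in which cleavage of C3 yields the peptide C3a and the tag C3b. Macrophages read these products through C3AR1, through C5AR1, the receptor of C5a, and through CRIg, the product of Vsig4, which binds tagged particles in tissue macrophages.

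The promoter windows of C1qb and C1qc, whose genes lie next to each other with C1qa in the RefSeq annotation, and of C3ar1, the gene that fell, are shown so that the regulatory sequence can be read beside the values. Each runs 5′ to 3′ on the gene's own strand, from 250 bases before to 50 bases after the annotated start, in RefSeq's GRCm38.p6 build. Of the 8 measured genes, 6 had a window in that set. C1qb lies at chr4:136886151-136886450, C1qc at chr4:136892865-136893164 and C3ar1 at chr6:122856108-122856407, all on the minus strand. Capitals mark the motif matches.
C1qb: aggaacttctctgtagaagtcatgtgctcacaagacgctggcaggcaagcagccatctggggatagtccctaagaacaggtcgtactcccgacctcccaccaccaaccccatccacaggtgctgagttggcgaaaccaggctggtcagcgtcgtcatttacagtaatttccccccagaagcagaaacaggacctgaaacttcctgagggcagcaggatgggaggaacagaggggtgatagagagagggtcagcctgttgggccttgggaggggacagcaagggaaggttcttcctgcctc
C1qc: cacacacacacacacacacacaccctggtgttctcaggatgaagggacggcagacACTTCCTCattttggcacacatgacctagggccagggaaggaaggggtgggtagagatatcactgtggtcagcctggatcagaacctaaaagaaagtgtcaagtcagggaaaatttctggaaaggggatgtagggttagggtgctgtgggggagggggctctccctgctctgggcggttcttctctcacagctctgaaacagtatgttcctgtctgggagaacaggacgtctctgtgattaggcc
C3ar1: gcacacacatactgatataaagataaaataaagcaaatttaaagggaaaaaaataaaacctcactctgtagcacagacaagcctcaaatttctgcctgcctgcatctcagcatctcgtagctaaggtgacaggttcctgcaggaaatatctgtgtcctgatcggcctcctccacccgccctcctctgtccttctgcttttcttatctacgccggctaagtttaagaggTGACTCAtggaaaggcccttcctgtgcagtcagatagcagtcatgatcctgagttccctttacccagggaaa

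Motifs were searched on both strands and the matches did not overlap each other. The AP-1 motif TGANTCA matched once in the C3ar1 window, starting 22 bases before the gene's start, and in 7.81% of all 32851 promoter windows of this length. The PU.1 motif GAGGAAGT, named after a factor of the myeloid lineage, matched once in the C1qc window, on the opposite strand and 195 bases before the start, and in 3.2% of all windows. The cyclic AMP response element TGACGTCA (1.79% of windows), the C/EBP-ATF element TGATGNAA (3.97%) and the interferon-stimulated response element GAAANNGAAA (3.44%) had no match in the 6 windows, and C1qb, C5ar1, Cfp and Vsig4 had none of the 5 motifs. A match is a description of the letters and not a shown binding site.

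Of the 8 measured complement genes, 1 rose and 1 fell on the arrays labelled ATF3-CKO in limma (adjusted p under 0.05, Benjamini-Hochberg across the whole array). C1qa was the gene that rose and C3ar1 the one that fell. Over all probe sets 2.85% were called, 1.17% higher and 1.68% lower, and 5.51% of those above the median level were called. The split of calls over all probe sets depended on scaling, with 41.1% of the calls higher as deposited, 33.5% after quantile normalization and 25.6% after median-centring of the arrays. The median log2 difference of the 8 genes was 0.75, against 0.06 over all probe sets, and 6 of the 8 differences were positive (75%), as were 65.8% of those over all probe sets. The 3 arrays of each group were wholly apart for 6 of the 8 genes, 5 with the arrays labelled ATF3-CKO on top and 1 below, whereas 24% of all probe sets were wholly apart, 16.5% higher and 7.51% lower. In such bulk RNA, fewer cells of a type and less RNA per cell cannot be told apart.

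**Figure D1:**
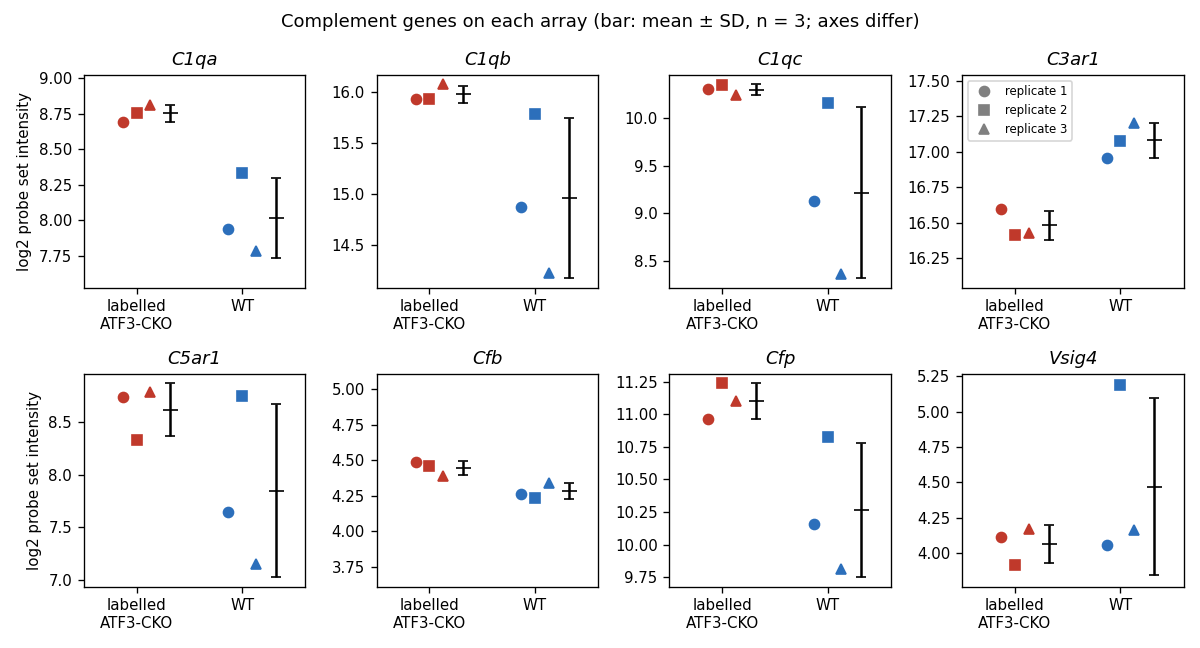
Log2 probe set intensity (vertical axis, a different range in each panel) of the 8 measured complement genes on the 3 arrays labelled ATF3-CKO (left, red) and the 3 WT arrays (right, blue), with the mean and SD of each group in black and the replicate number as the marker shape. For C1qb, C1qc, C5ar1, Cfp and Vsig4 the WT square (replicate 2) lies far above both other WT arrays.

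The C1q chains read higher on the arrays labelled ATF3-CKO, and the difference passed the test for 1 of the 3. C1qa, the A chain, gave 8.69, 8.76 and 8.81 on the arrays labelled ATF3-CKO and 7.94, 8.33 and 7.79 on the WT arrays. The groups did not overlap, and the difference of 0.74 (SE 0.14) on the log2 scale, 1.67-fold with a 95% interval of 1.32 to 2.11, had an adjusted p of 0.0472. That call sat at the threshold: the adjusted p ranged from 0.00911 to 0.168 over 14 alternatives and it was lost in 9 of them, among them both other scalings (0.0797 and 0.106) and each fit without 1 array other than WT replicate 2.

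C1qb, the B chain, gave 15.94, 15.93 and 16.08 on the arrays labelled ATF3-CKO and 14.88, 15.79 and 14.22 on the WT arrays. Every array labelled ATF3-CKO lay above every WT array, by a narrow gap to WT replicate 2. Its mean was 15.98 ± 0.08 on the arrays labelled ATF3-CKO and 14.96 ± 0.78 on the WT arrays (SD, n = 3 each), and the log2 difference of 1.02 (SE 0.35) did not pass (adjusted p = 0.188 in limma). C1qc, the C chain, followed the same layout, with 10.31, 10.34 and 10.24 on the arrays labelled ATF3-CKO and 9.13, 10.15 and 8.37 on the WT arrays. The log2 difference was 1.08 (SE 0.39; adjusted p = 0.215 in limma), and the 95% interval of 1.11-fold to 4.02-fold took in the 1.67-fold of C1qa. The differences of the 3 chains were not tested against each other.

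Among the genes of the alternative pathway, Cfp was bright and Cfb was dim. Cfp gave 10.97, 11.24 and 11.11 on the arrays labelled ATF3-CKO and 10.16, 10.83 and 9.81 on the WT arrays. The groups lay apart, with WT replicate 2 closest to the arrays labelled ATF3-CKO, and the log2 difference was 0.84 (SE 0.24; adjusted p = 0.127 in limma). Cfb gave 4.49, 4.46 and 4.39 on the arrays labelled ATF3-CKO and 4.26, 4.23 and 4.34 on the WT arrays, near the median of all probe sets at 4.32, while the background control probe sets had a median of 2.77. Its log2 difference of 0.17 (95% interval -0.02 to 0.35) did not pass (adjusted p = 0.326).

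The anaphylatoxin receptors had differences of opposite sign. C3ar1, the receptor of C3a, gave 16.60, 16.41 and 16.43 on the arrays labelled ATF3-CKO and 16.96, 17.07 and 17.20 on the WT arrays. The groups did not overlap and all 3 WT arrays were high, unlike for the C1q chains. C3ar1 fell by 0.60 (SE 0.10) on the log2 scale, 1.51-fold lower with a 95% interval of 1.29 to 1.78, and its adjusted p was 0.028. Over the 14 alternatives the adjusted p ranged from 0.0148 to 0.124 and the call was lost in 7, including the fits without WT replicate 1, 2 or 3 (0.0627, 0.0578 and 0.0517) and without ATF3-CKO replicate 2 or 3 (0.101 and 0.124).

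C5ar1 gave 8.74, 8.33 and 8.79 on the arrays labelled ATF3-CKO and 7.65, 8.75 and 7.15 on the WT arrays. The groups overlapped, since WT replicate 2 read as high as the arrays labelled ATF3-CKO, while the other two WT arrays lay below all of them. The log2 difference was 0.77 (SE 0.38; adjusted p = 0.355), with a 95% interval from 0.917-fold to 3.16-fold. Whether the responses of C3ar1 and C5ar1 differ was not tested. Vsig4 was dim on 5 arrays, at 4.12, 3.92 and 4.17 on the arrays labelled ATF3-CKO and 4.06, 5.19 and 4.16 on the WT arrays. WT replicate 2 alone stood above that level, so the log2 difference of -0.40 (adjusted p = 0.531) became -0.04 without it.

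**Figure D2:**
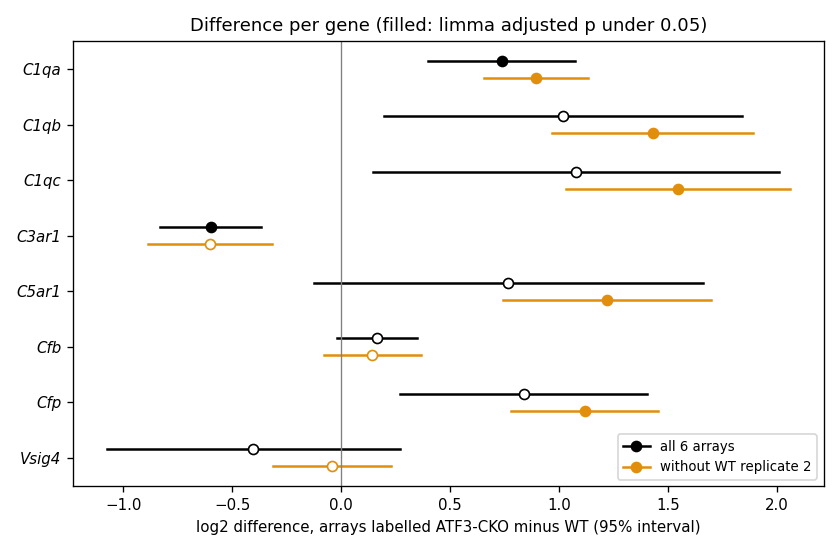
Log2 difference of each complement gene, arrays labelled ATF3-CKO minus WT (horizontal axis), with its 95% interval in limma, for all 6 arrays (black) and without WT replicate 2 (orange). Filled points had an adjusted p under 0.05 in limma: C1qa and C3ar1 with all arrays, and C1qa, C1qb, C1qc, C5ar1 and Cfp without WT replicate 2. That array was left out with its values seen.

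The WT arrays differed from each other in most of these genes far more than the arrays labelled ATF3-CKO did. C1qc had an SD of 0.05 on the arrays labelled ATF3-CKO and 0.89 on the WT arrays, a ratio of 16.9 that 0.512% of all probe sets reached. For C1qb the ratio was 9.53, reached by 1.48%, while C3ar1 and Cfb had ratios of 1.21 and 1.10. The SD was larger on the WT arrays for 8 of the 8 genes, whereas it was larger there for 50.1% of all probe sets.

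Much of this spread was the height of WT replicate 2. It was the highest WT array for 6 of the 8 genes, against 22.6% of all probe sets, the exceptions being C3ar1 and Cfb. Relative to the mean of the other two WT arrays it was higher by 1.40 on the log2 scale for C1qc, 1.36 for C5ar1, 1.23 for C1qb, 1.08 for Vsig4, 0.84 for Cfp and 0.47 for C1qa, where the median size of that shift over all probe sets was 0.12. Shifts as large as that of C1qc occurred in 0.555% of probe sets. For C1qa, C1qb, C1qc, C5ar1 and Cfp the 3 WT arrays also stood in one order, with replicate 2 highest and replicate 3 lowest, an order found in 13.1% of all probe sets.

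Of the 9 measured macrophage markers, 6 were highest among the WT arrays on replicate 2, while Cd14 and Cd68 were highest on replicate 1 and Mrc1 on replicate 3. Mertk, the GAS6 receptor itself, gave 10.68, 10.26 and 10.35 on the arrays labelled ATF3-CKO and 8.94, 9.69 and 8.59 on the WT arrays (log2 difference 1.36, adjusted p = 0.0499, a call lost in 7 of 14 alternatives with adjusted p up to 0.156). Csf1r, the receptor of macrophage colony-stimulating factor, gave 14.32, 14.16 and 14.21 on the arrays labelled ATF3-CKO and 14.45, 14.71 and 13.84 on the WT arrays. Adgre1, whose product is a surface marker of mouse macrophages, gave 13.01, 12.74 and 12.77 on the arrays labelled ATF3-CKO and 13.63, 14.28 and 12.90 on the WT arrays. These 3 were lowest among the WT arrays on replicate 3, and the part of this in the complement values was not tested.

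Without WT replicate 2, 5 of the 8 complement genes rose in limma, against 1.28% of all probe sets called higher in that fit. The folds were 1.86 for C1qa, 2.70 for C1qb, 2.92 for C1qc, 2.17 for Cfp and 2.33 for C5ar1 (adjusted p = 0.00911, 0.017, 0.0188, 0.0137 and 0.0319). C3ar1 then differed by -0.60 on the log2 scale (adjusted p = 0.0578). The array was singled out after its values were seen, and nothing in the labels sets it apart. It was the highest WT array for the 5 genes that rose, so leaving it out had to widen their differences. The calls of that fit are a description and no test of these genes. The count of complement genes that rose was 0 in each of the 5 other fits that left out an array.

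**Figure D3:**
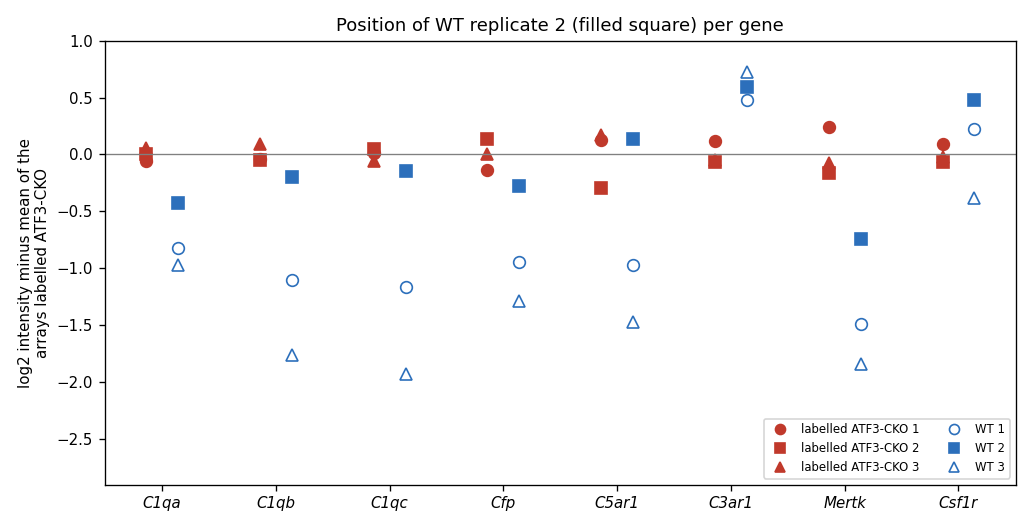
Log2 intensity of each array minus the mean of the 3 arrays labelled ATF3-CKO (vertical axis), for 6 complement genes and the macrophage genes Mertk and Csf1r, with arrays labelled ATF3-CKO in red to the left of the WT arrays in blue. WT replicate 2 (filled blue square) lies above both other WT arrays for each gene shown except C3ar1.

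Genes were ranked by how closely their 6 values, each centred on the gene's mean, followed those of C1qa. Of 17026 genes above the median level, the closest were Ece1, which encodes endothelin-converting enzyme, Nlrp1b, an inflammasome sensor, Fcgr3, an activating receptor for immunoglobulin G, Lfng, which encodes a Notch-modifying glycosyltransferase, and the predicted gene Gm18953. Their root mean square differences from C1qa were 0.07 to 0.09 on the log2 scale over 6 arrays. Cfp ranked 92 with 0.16, while C1qb ranked 2210 with 0.33 and C1qc 6573 with 0.40. Both chains had the WT order of C1qa, with a wider swing among the WT arrays.

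Of 11 further complement receptors measured, 4 fell and none rose on the arrays labelled ATF3-CKO in limma. At an unadjusted p of 0.05 the numbers were 5 lower and 2 higher, with a median log2 difference of -0.22. Over all probe sets 1.68% fell and 1.17% rose in limma at the adjusted threshold. Itgam, the αM chain of complement receptor 3, which binds the C3b fragment iC3b, gave 11.17, 11.38 and 11.37 on the arrays labelled ATF3-CKO and 14.95, 15.17 and 14.67 on the WT arrays. It was 12.3-fold lower (log2 difference -3.63, adjusted p = 1.28e-04). Itgax, the αX chain of complement receptor 4 and the neighbour of Itgam in the genome, gave 12.17, 12.30 and 12.20 on the arrays labelled ATF3-CKO and 15.03, 15.13 and 14.09 on the WT arrays, 5.75-fold lower with an adjusted p of 0.00481. Itgb2, the β2 chain that both receptors share, gave 15.85, 15.73 and 15.70 on the arrays labelled ATF3-CKO and 17.12, 17.03 and 16.86 on the WT arrays, 2.37-fold lower with an adjusted p of 0.00156. For these 3 integrin genes the groups did not overlap and the call held in all 14 alternatives. Neutrophils also carry complement receptor 3, and 6 of 12 neutrophil markers fell on the same arrays. Ltf, the gene of lactoferrin, had a log2 difference of -5.13, while Csf3r went the other way (0.76, adjusted p = 0.102 in limma). The part of neutrophils in the result, and in that of C3ar1, which neutrophils also express, was not tested.

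Several other receptors have been linked to C1q or to uptake of tagged targets. Lrp1, an endocytic receptor, fell by 0.92 on the log2 scale (adjusted p = 0.0246), and lost its call without ATF3-CKO replicate 1 or 3 or WT replicate 1 (0.0761, 0.116 and 0.0986). Scarf1, a scavenger receptor, had a log2 difference of -0.66 (adjusted p = 0.0621). Cd93, once named a C1q receptor, gave 11.98, 11.71 and 11.83 on the arrays labelled ATF3-CKO and 10.83, 11.55 and 10.82 on the WT arrays. WT replicate 2 was again nearest to the arrays labelled ATF3-CKO, and the log2 difference was 0.77 (adjusted p = 0.102 in limma with all arrays). Without that array, left out with its values seen, the adjusted p was 0.00868. C1qbp and Calr, the gene of calreticulin, differed by 0.19 and -0.22 without passing (adjusted p = 0.232 and 0.343). The other 3 of the 11, C5ar2, Cr2 and Megf10, did not pass either, with log2 differences of -0.06, 0.09 and 0.10 (adjusted p = 0.797, 0.663 and 0.576).

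**Figure D4:**
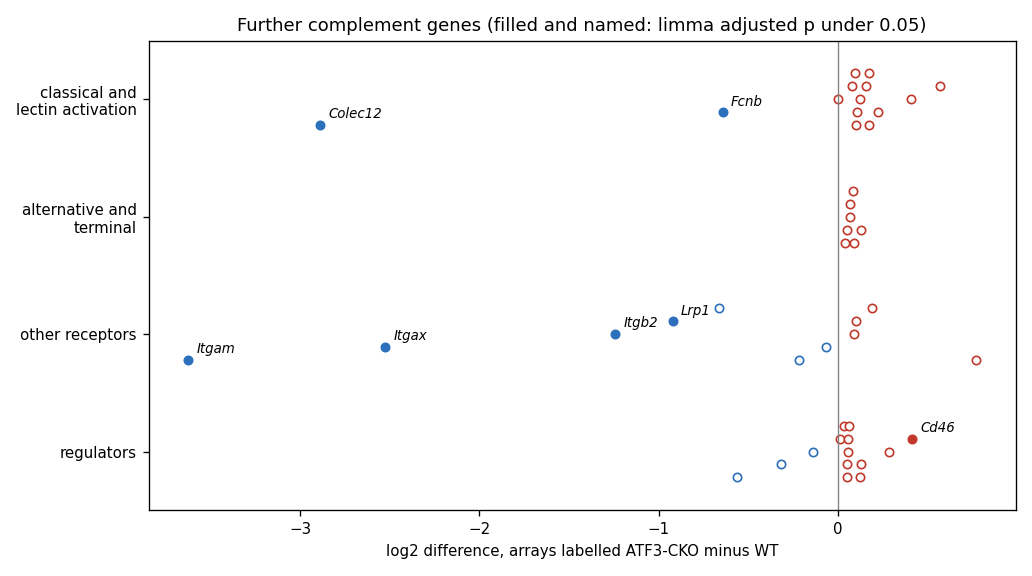
Log2 difference, arrays labelled ATF3-CKO minus WT (horizontal axis), of 46 further complement genes in 4 lists (rows). Filled, named points passed an adjusted p of 0.05 in limma: 6 lower genes, Itgam, Colec12, Itgax, Itgb2, Lrp1 and Fcnb, and 1 higher gene, Cd46.

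Among 14 measured genes of the classical and lectin pathways, 2 fell and none rose in limma (2 lower and 3 higher at an unadjusted p of 0.05), with a median log2 difference of 0.12. Colec12, a collectin of the cell membrane that acts as a scavenger receptor, gave 8.66, 8.76 and 8.86 on the arrays labelled ATF3-CKO and 11.77, 11.36 and 11.82 on the WT arrays. It was 7.40-fold lower (adjusted p = 2.47e-04), with its call kept in all 14 alternatives. Fcnb, a ficolin of the monocyte and neutrophil lineage, fell by 0.64 on the log2 scale near the median level (4.11 ± 0.19 on the arrays labelled ATF3-CKO and 4.75 ± 0.03 on the WT arrays, SD, n = 3 each, adjusted p = 0.0298 in limma), and lost its call in 6 of 14 alternatives. Fcna, the other ficolin, which is made by macrophages, differed by 0.57 (adjusted p = 0.0526), and C4b, a substrate of the C1 complex, by 0.41 (adjusted p = 0.0608). Both showed the arrays labelled ATF3-CKO wholly above the WT arrays. C4a, a near-identical copy of C4b that its probes may not separate, and C1ra, a protease of the C1 complex, differed by 0.23 and 0.16 (adjusted p = 0.23 and 0.32).

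Terminal components were dim and had no call. The means of all 7 measured were under the median of the probe sets, their log2 differences ran from 0.04 to 0.13, and none passed at an adjusted or an unadjusted p of 0.05 in limma. The closest to passing were C8g, C7, C8a and Hc, which encodes C5, with adjusted p of 0.451, 0.634, 0.657 and 0.728.

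Of 14 measured regulators, 1 rose and none fell in limma (2 higher and 2 lower at an unadjusted p of 0.05), with a median log2 difference of 0.05. Cd46, a cofactor for cleavage of C3b that in mice is best known from the sperm acrosome, gave 5.32, 5.18 and 5.26 on the arrays labelled ATF3-CKO and 4.81, 4.85 and 4.85 on the WT arrays, 1.33-fold with an adjusted p of 0.0411. Its call was lost in 10 of 14 alternatives, each fit without 1 array among them. Cd55 and Cd55b, copies of decay-accelerating factor, had log2 differences of -0.56 and -0.32 (adjusted p = 0.107 and 0.233). Cd59b, an inhibitor of the membrane attack complex, and Cfi, the protease that cuts C3b, differed by 0.28 and 0.13 (adjusted p = 0.115 and 0.453).

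Over these 46 further genes, of 51 listed, 1 rose and 6 fell, 13 had the arrays labelled ATF3-CKO wholly above the WT arrays and 10 wholly below, and the means of 22 lay under the median of all probe sets. Their median log2 difference was 0.07, close to the 0.06 of all probe sets. Over all probe sets 1.17% rose and 1.68% fell, while 16.5% lay wholly above and 7.51% wholly below.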

How the data were processed

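RNA was hybridised to 6 arrays, named Clariom D mouse in the labels and Clariom S in the study's methods. The authors deposited log2 probe set intensities made with the RMA method of Affymetrix Expression Console, with global scaling per the methods. No version, genome build or annotation release was stated in the sources read. Of 72688 probe sets, 6732 controls were left out. Log2 values were fitted with limma 3.58.1 in R 4.3.3 (lmFit and eBayes, two-sided, group only, ATF3-CKO minus WT), with Benjamini-Hochberg adjustment over all 65956 probe sets at 0.05. Intervals are 95% intervals of that fit. With 3 arrays a group, the smallest exact permutation p is 0.1, and no such test was used. The small number of arrays sets the precision.

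Of the probe sets tested, 30646 had 1 symbol, 2168 several and 33142 none; a gene was represented by its probe set with 1 symbol and the highest mean. The members, the lists of complement and marker genes and the rule for named genes were chosen with earlier results of these data known. Named were all members, Atf3, genes of each complement list past the threshold with up to 4 others of smallest p, the 5 genes nearest to C1qa, Lyz2 as the locus of the Cre, and a few markers, among which Csf1r, Adgre1, Ly6c2 and Cd4 (and C5ar2, Cr2 and Megf10, to complete the receptors) were singled out with their values seen. The fit was repeated with quantile normalization, with arrays centred on their medians, with a filter on dim probe sets, probe sets with 1 symbol only, the replicate number as a block, eBayes with trend and robust settings, array weights, the mean of a gene's probe sets, and leaving out each array. Same-numbered arrays of the groups did not deviate together (correlations 0.03, -0.09 and -0.07), so the number was not taken to pair them. The fit was tested on simulated data, with no outcome reported here, so no call above rests on that. Promoter sequences are those of RefSeq.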

Additional observations from a re-analysis of the deposited data

How the results depend on the processing

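Each of the 8 complement genes kept the sign of its difference in all 111 fits made as alternatives. Many of these could not turn a sign. The filter, the 1-symbol restriction, the replicate block, the eBayes settings and the mean of probe sets left each fitted difference unchanged. Where the groups lay wholly apart, neither leaving out 1 array nor array weights could turn the sign. Of the 111 fits, 89 fell on the same side of the threshold as the reported value. The count of complement genes that rose, 1 as reported, was 0 with quantile normalization, median-centring, the replicate block, or eBayes with trend and robust settings, 3 with array weights, and 0 to 5 over the fits without 1 array, with 5 only without WT replicate 2. The count that fell, 1 as reported, was 0 with the replicate block or with eBayes trend and robust settings, and 0 to 1 over the fits without 1 array, with 1 only without ATF3-CKO replicate 1. Under the replicate block the adjusted p was 0.0737 for C1qa and 0.0808 for C3ar1, and the calls over all probe sets numbered 1284 rather than 1881. The block was not taken as a pairing, so these losses are not read as weaker effects.

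Of the 46 further complement genes, 1 rose as reported. That count was 0 with quantile normalization, median-centring, the replicate block or eBayes trend and robust settings, 2 with the filter on dim probe sets, 3 with probe sets of 1 symbol or with the mean of a gene's probe sets, 4 with array weights, and 0 to 1 over the fits without 1 array. The 6 that fell numbered 4 to 7 over all alternatives. Signs turned for Hc after median-centring (-0.014, against 0.07) and for Csf1r, whose difference ran from -0.351 to 0.0817 over the fits without 1 array and was above 0 only without WT replicate 2, neither of which was called. Vsig4, with a mean below that filter, could not be fitted with it. Each fit without 1 array has fewer arrays, which can lower a count whichever array is left out. The causes of the other changes were not tested. Dim genes such as Cfb and Vsig4 lay near the median level of all probe sets (4.32), above the background controls (2.77). A change in them may still not have been detectable.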
